A study of Rattus norvegicus with 9 samples.

Results

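RNA of 41 genes that act in DNA replication and cell division was measured in tissue that had formed inside nerve conduits in rats, 14 days after the conduits were placed across a 2 cm gap cut into the sciatic nerve. The members were picked by symbol: 29 act in mitosis and 12 act in S phase, the stretch of the cell cycle in which DNA is copied, or at its onset. All 41 symbols matched 1 gene each among the 21486 genes of the deposited table, all are annotated there as protein coding, and all 41 passed the filter on low counts. Libraries came from 3 kinds of conduit, with 3 libraries each. The AFMC-AA-SP conduit holds aligned fibers and lengthwise microchannels, with spermidine, a polyamine, adsorbed to the fiber surface and L-ascorbic acid inside the fibers. The AFMC conduit has the same fibers and channels and neither molecule, and the Hollow conduit is an empty tube. Rats of every group carried the same nerve gap and were sampled on the same day. The sources used here give no strain, age or sex, and the labels do not tie libraries to animals, so p-values measure only the spread between these libraries.

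The libraries held 18314489 to 26074134 counts. AFMC replicate 3 stood apart on the first principal component of all genes, at -72.3 against -9.93 to 23.5 in the other 8 libraries. In that library the summed level of 7 neutrophil markers was 581 CPM (counts scaled to a common library size), against 33.3 to 114 CPM elsewhere, and that of 7 B and plasma cell markers 1159 CPM, against 25.2 to 124 CPM. Hollow replicate 2 had the highest value of all 9 libraries in 32 of the 41 members, and 11.5% of all tested genes peaked there. Of the Schwann cell markers, 8 were kept, Sox10, S100b and Erbb3 among them, and none of these 8 was at 0 in any library. Their summed level was 694 to 802 CPM in AFMC-AA-SP, 412 to 568 CPM in AFMC and 730.1 to 749.8 CPM in Hollow libraries. The marker list was shortened after its values were seen. These sums, and the lack of a marker at 0, are therefore a description only and no check of the nerve label.

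A dividing cell first licenses its replication origins with the Mcm2 to Mcm7 helicase, then copies its DNA with the help of the sliding clamp Pcna and of enzymes that make deoxynucleotides. It later condenses the chromosomes, attaches them to a spindle and splits in cytokinesis, under the control of Cdk1 with A- and B-type cyclins. After nerve injury, Schwann cells, fibroblasts, endothelial cells and macrophages can all divide, and in bulk tissue a smaller share of dividing cells cannot be told apart from less RNA per cell.

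Mitotic and S-phase genes are known to carry different letters near their start sites. CCAAT is the core of the box bound by NF-Y. The letters TTTGAA are a form of the cell cycle homology region that the MuvB complexes bind in human cells, and TTTNNCGC, where N is any base, is a form of the site bound by the E2f family. Promoters of 3 mitotic and 3 S-phase members are shown because they carry these patterns, from 220 bases before the start to 30 after it, in the gene's own direction. They come from RefSeq on the GRCr8 build. Capitals mark matches to the 3 patterns, read on either strand. The windows lie at chr13:103760857-103761106 (minus strand) for Cenpf, chr2:111966597-111966846 (minus) for Ect2, chr20:19265073-19265322 (plus) for Cdk1, chr9:30733717-30733966 (minus) for Mcm3, chr19:13488593-13488842 (plus) for Mcm5 and chr13:42404323-42404572 (minus) for Mcm6.
Cenpf: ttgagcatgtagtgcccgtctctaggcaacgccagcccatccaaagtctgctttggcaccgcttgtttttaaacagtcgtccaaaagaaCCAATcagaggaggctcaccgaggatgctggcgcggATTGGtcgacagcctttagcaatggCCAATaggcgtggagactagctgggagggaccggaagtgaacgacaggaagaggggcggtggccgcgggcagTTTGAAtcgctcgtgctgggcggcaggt
Ect2: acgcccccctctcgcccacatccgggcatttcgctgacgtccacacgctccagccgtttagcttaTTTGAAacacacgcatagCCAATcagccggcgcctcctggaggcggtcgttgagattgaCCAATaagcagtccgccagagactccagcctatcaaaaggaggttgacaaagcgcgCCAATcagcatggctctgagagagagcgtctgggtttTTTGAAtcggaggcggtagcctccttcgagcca
Cdk1: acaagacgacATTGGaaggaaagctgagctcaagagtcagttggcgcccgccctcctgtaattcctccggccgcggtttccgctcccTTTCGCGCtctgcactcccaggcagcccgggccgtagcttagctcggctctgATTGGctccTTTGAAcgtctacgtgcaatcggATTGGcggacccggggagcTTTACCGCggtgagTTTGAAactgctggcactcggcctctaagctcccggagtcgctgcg
Mcm3: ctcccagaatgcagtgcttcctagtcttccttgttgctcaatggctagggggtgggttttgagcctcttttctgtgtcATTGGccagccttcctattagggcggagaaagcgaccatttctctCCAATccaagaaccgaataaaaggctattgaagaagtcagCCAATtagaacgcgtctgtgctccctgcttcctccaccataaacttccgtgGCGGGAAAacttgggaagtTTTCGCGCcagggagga
Mcm5: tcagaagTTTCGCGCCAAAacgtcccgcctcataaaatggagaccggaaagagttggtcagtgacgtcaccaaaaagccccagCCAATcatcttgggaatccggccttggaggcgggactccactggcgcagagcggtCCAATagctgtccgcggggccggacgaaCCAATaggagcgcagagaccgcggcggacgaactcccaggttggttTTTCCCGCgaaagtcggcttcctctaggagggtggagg
Mcm6: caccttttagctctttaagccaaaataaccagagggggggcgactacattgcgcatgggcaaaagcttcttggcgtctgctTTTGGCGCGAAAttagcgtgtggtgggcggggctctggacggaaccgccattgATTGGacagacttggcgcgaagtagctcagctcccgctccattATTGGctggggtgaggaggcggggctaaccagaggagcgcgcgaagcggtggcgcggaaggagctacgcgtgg
In these windows the mitotic promoters hold 3 CCAAT matches each, followed by TTTGAA close to the start: 3 bases into the Cenpf transcript and 3 and 16 bases before the starts of Ect2 and Cdk1. The Mcm3, Mcm5 and Mcm6 promoters hold CCAAT and TTTNNCGC but no TTTGAA. The Cdk1 promoter holds all 3 patterns. In the Mcm5 and Mcm6 promoters, a TTTNNCGC match on one strand overlaps a match on the other by 4 bases.

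Promoters were found for 35 members, 26 mitotic and 9 S-phase, over the full windows of 250 bases before to 50 after the start. Ccna2, Aurkb, Tpx2, Mcm4, Rrm2 and Ccne2 were not matched. TTTGAA occurred in 18 of 26 mitotic promoters (69.2%) and in 1 of 9 S-phase promoters (11.1%), that of Mcm2, against 18.3% of all 33469 promoters in the table. TTTNNCGC showed the other pattern, with 3 of 26 mitotic promoters (11.5%), 6 of 9 S-phase promoters (66.7%) and 4.92% of all promoters. CCAAT was found in 69.2% of the mitotic and 66.7% of the S-phase promoters, against 37.5% of all. CCAAT and TTTGAA stood together in 14 mitotic promoters and 0 S-phase promoters, against 7.41% of all. A match is a string of letters and not a measured binding site.

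Levels between genes were compared as FPKM, the counts scaled by gene length and by library size. The member with the highest level was Pcna, the clamp that holds DNA polymerases on their template, at 42.0 ± 3.73 FPKM in AFMC-AA-SP, 46.4 ± 3.70 FPKM in AFMC and 45.2 ± 4.80 FPKM in Hollow libraries (SD, n = 3 each). Rrm1, the large subunit of ribonucleotide reductase, followed at 20.5 ± 1.05 FPKM in AFMC-AA-SP, 22.3 ± 1.24 FPKM in AFMC and 23.2 ± 2.03 FPKM in Hollow libraries. The 6 subunits of the Mcm helicase lay close together, with means over 9 libraries of 8.50 to 11.8 FPKM. Cdk1, the kinase that drives entry into mitosis, had the highest mitotic level as a mean over 9 libraries, at 12.7 ± 0.13 FPKM in AFMC-AA-SP, 14.7 ± 0.19 FPKM in AFMC and 16.4 ± 2.84 FPKM in Hollow libraries. Prc1, which bundles the microtubules of the central spindle, was next, at 12.8 ± 0.46 FPKM in AFMC-AA-SP, 13.3 ± 0.48 FPKM in AFMC and 16.3 ± 3.16 FPKM in Hollow libraries. Among the other roles, Top2a led the spindle and chromosome genes at a mean of 11.1 FPKM, Cdc20 the kinetochore and checkpoint genes at 9.68 FPKM and Ccne2 the E-type cyclins at 3.64 FPKM. Cenpa, the histone variant of centromeres, had the lowest level of the 41 at 1.96 FPKM. The median over the 12 S-phase members was 10.4 FPKM, against 5.23 FPKM over the 29 mitotic members.

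**Figure D1:**
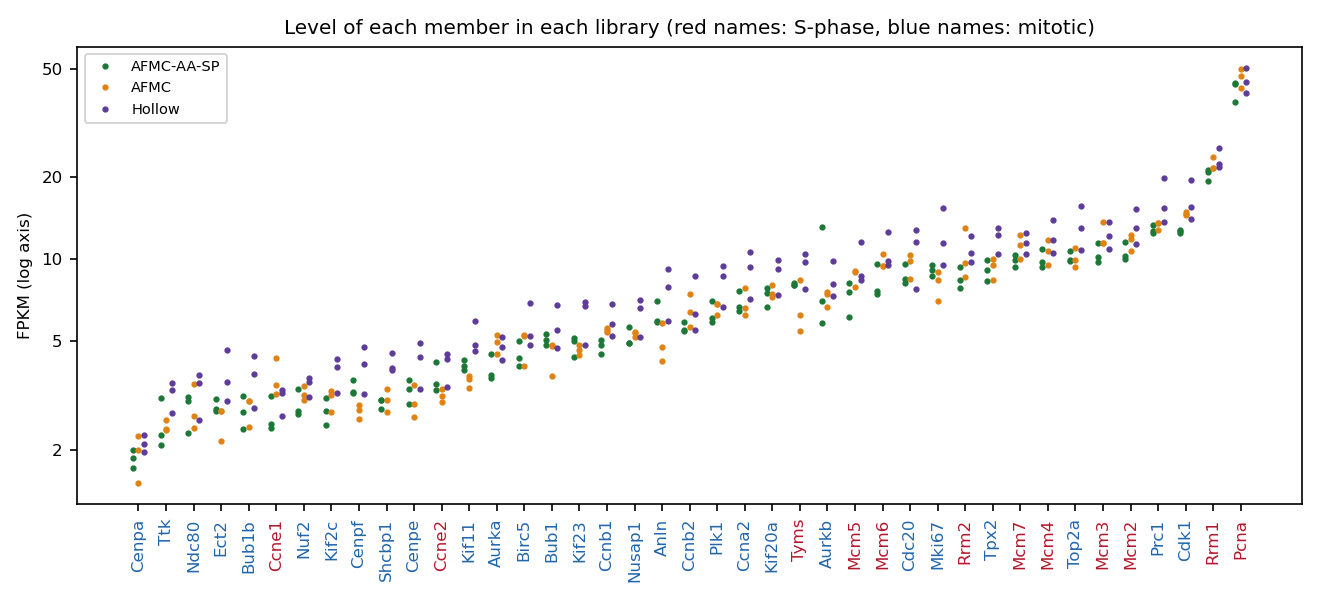
FPKM (log axis) of the 41 members, ordered by their mean over 9 libraries, with 1 point per library and AFMC-AA-SP, AFMC and Hollow side by side; S-phase names are red and mitotic names blue. Pcna lies highest at a mean of 44.5 FPKM and Cenpa lowest at 1.96 FPKM, and the top point of most mitotic genes belongs to a Hollow library.

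The 3 group means of a member followed 1 order in 24 of 41 cases, with AFMC-AA-SP lowest, AFMC between and Hollow highest; 20 of these 24 are mitotic. In 7 members, 6 of them S-phase, AFMC-AA-SP was again lowest but AFMC was highest. AFMC was lowest in the remaining 10. AFMC-AA-SP thus had the lowest mean in 31 members, 21 mitotic and 10 S-phase, and Hollow in 0. Group means are given here on the CPM scale and carry no test. The same orders were not counted over all genes, so they are not shown to be particular to the members. Hollow replicate 2, the highest of all 9 libraries in 32 members, raises the Hollow means.

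In the Hollow group the members moved with the library. Hollow replicate 2 was the highest Hollow library in 39 of 41 members and Hollow replicate 3 the lowest in 35. The other groups were less uniform: the highest library was replicate 2 of AFMC-AA-SP in 27 members and replicate 3 of AFMC in 23. The median coefficient of variation of the mitotic members was 7.70% in AFMC-AA-SP, 8.24% in AFMC and 19.2% in Hollow libraries. For the S-phase members it was 7.99% in AFMC-AA-SP, 9.84% in AFMC and 13.8% in Hollow libraries. Neither the orders within groups nor these coefficients were computed over all genes, so they are not shown to be particular to the members. Over all 9 libraries the largest ratio of highest to lowest CPM was 2.21, for Aurkb, and the smallest was 1.32, for Rrm1.

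**Figure D2:**
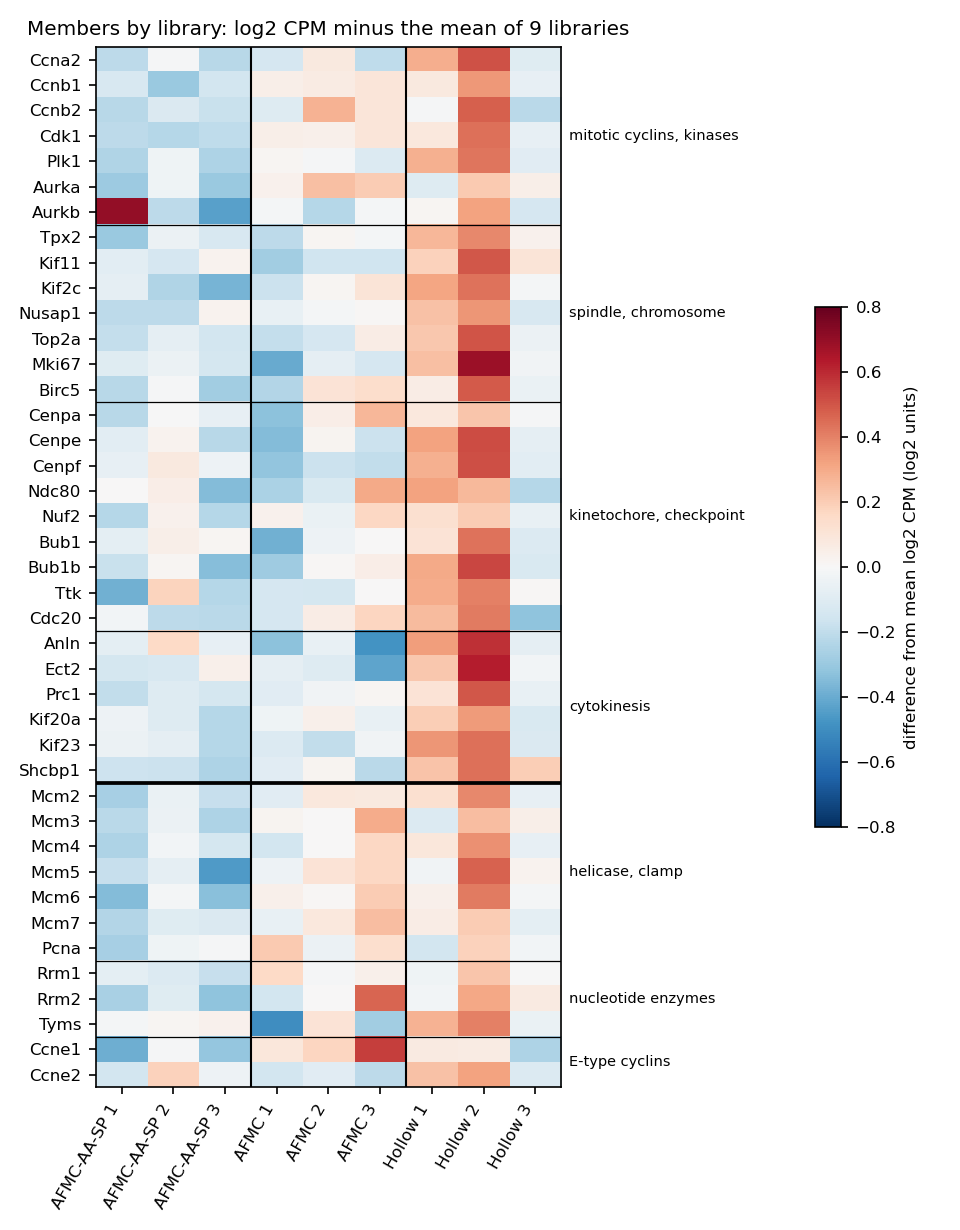
Each cell is the log2 CPM of 1 member (rows, grouped by role, with the thick line between mitotic and S-phase members) in 1 library (columns) minus that member's mean over 9 libraries, in log2 units. The column of Hollow replicate 2 is the highest of the 9 in 32 members; AFMC-AA-SP replicate 1 stands out in the Aurkb row.

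A score per library, the mean over members of log2 CPM centred on the 9 libraries, sums this up. The mitotic score was -0.13, -0.06 and -0.18 in AFMC-AA-SP replicates 1 to 3, -0.16, -0.02 and -0.01 in AFMC, and 0.19, 0.43 and -0.07 in Hollow. Hollow replicates 1 and 2 lay above all other libraries, and Hollow replicate 3 lay among them. The S-phase score was -0.22, -0.03 and -0.19 in AFMC-AA-SP, -0.05, 0.04 and 0.15 in AFMC, and 0.05, 0.30 and -0.04 in Hollow, so AFMC and Hollow overlapped, and AFMC-AA-SP overlapped with both through replicate 2. The S-phase minus the mitotic score was -0.09, 0.03 and -0.01 in AFMC-AA-SP, 0.11, 0.05 and 0.17 in AFMC, and -0.15, -0.13 and 0.02 in Hollow. All 3 AFMC values lay above the 6 values of the other groups. The means were -0.02 ± 0.06 in AFMC-AA-SP, 0.11 ± 0.06 in AFMC and -0.09 ± 0.10 in Hollow (SD, n = 3 each).

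**Figure D3:**
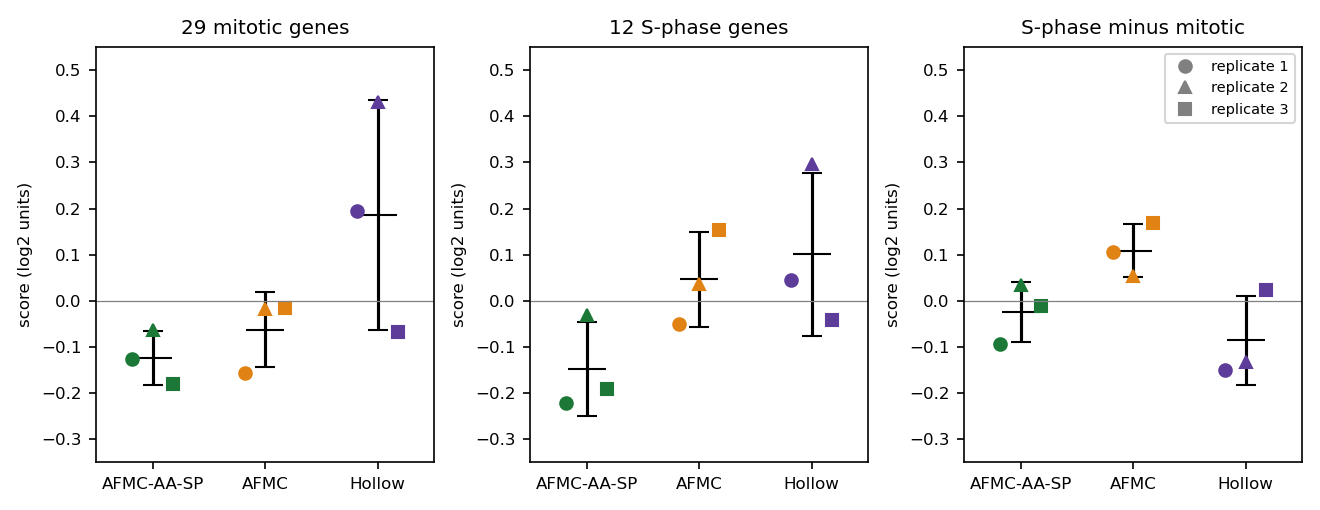
Scores (log2 units) of the 29 mitotic genes, the 12 S-phase genes and their difference, 1 symbol per replicate, with the group mean and SD as bars. In the right panel the AFMC libraries lie at 0.05 to 0.17, above the libraries of AFMC-AA-SP (-0.09 to 0.03) and Hollow (-0.15 to 0.02).

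The comparison of AFMC with Hollow addresses the effect of the fibers and channels alone. Fold changes of mitotic genes mostly lay below 0, and those of S-phase genes on both sides of 0. Before any allowance for gene length, genes of cytokinesis, the spindle and the kinetochore lay furthest below 0. In edgeR's quasi-likelihood test with Benjamini-Hochberg adjustment, 0 of 41 members passed an adjusted p of 0.05, as did 0% of the 15659 genes tested. At an unadjusted p under 0.05, 11 members were lower in AFMC, 26.8% of them against 11.1% of all genes, and 0 were higher, against 8.4%. DESeq2 called 4 members lower (9.76%, against 3.86% of all genes): Kif11, Mki67, Cenpf and Anln. The log2 fold change was below 0 in 34 of 41 members, against 47.9% of all genes. Of the 34, 28 were among the 29 mitotic members and 6 among the 12 S-phase members. The median was -0.27 over mitotic members, -0.03 over S-phase members and 0.01 over all genes.

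Of the spindle and chromosome genes, 7 of 7 were below 0, with a median of -0.30. Kif11, the motor that pushes spindle poles apart, had 16.9, 18.4 and 18.4 CPM in AFMC, against 23.3, 28.9 and 22.0 CPM in Hollow. The groups did not overlap, and the log2 fold change was -0.47 ± 0.11 (SE), with an adjusted p of 0.115 in edgeR, the smallest of any member, and of 0.0215 in DESeq2. Mki67, the proliferation antigen that coats mitotic chromosomes, had 71.7, 90.0 and 86.3 CPM in AFMC, against 112, 152 and 92.8 CPM in Hollow. Its groups too did not overlap, although AFMC replicate 2 and Hollow replicate 3 lay close, and the log2 fold change was -0.52 ± 0.16 (edgeR adjusted p = 0.150, DESeq2 0.0483). Top2a, which untangles DNA before the chromosomes part, had 55.4, 57.8 and 66.1 CPM in AFMC, against 73.6, 90.0 and 61.4 CPM in Hollow, with overlap through AFMC replicate 3 and Hollow replicate 3. Its log2 fold change was -0.33 ± 0.13.

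The 9 kinetochore and checkpoint genes were all below 0, with a median of -0.29 and a range of -0.48 to -0.04. Cenpf, a large protein of the outer kinetochore, had 27.0, 29.8 and 29.3 CPM in AFMC, against 40.8, 47.9 and 31.6 CPM in Hollow. The groups did not overlap, and the log2 fold change was -0.48 ± 0.14 (edgeR adjusted p = 0.133, DESeq2 0.0401). Cenpe, the kinetochore motor that carries chromosomes to the spindle's middle, had a log2 fold change of -0.44 ± 0.16, while Nuf2, a subunit of the Ndc80 complex that binds microtubules, had -0.04 ± 0.12.

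Of the cytokinesis genes, 6 of 6 were below 0, with the lowest median of the 7 roles at -0.37. Anln, which cross-links actin and myosin in the cleavage furrow, had 24.7, 29.6 and 22.2 CPM in AFMC, against 39.0, 46.4 and 29.4 CPM in Hollow, overlapping through AFMC replicate 2 and Hollow replicate 3. Its log2 fold change of -0.58 ± 0.17 was the largest in size among the members (edgeR adjusted p = 0.136, DESeq2 0.0365). Ect2, which activates the small GTPase that builds the furrow, had 14.1, 13.8 and 11.1 CPM in AFMC, against 17.3, 22.9 and 14.7 CPM in Hollow. Its groups did not overlap, and the log2 fold change was -0.49 ± 0.17 (edgeR adjusted p = 0.171). Shcbp1, which acts at the midbody with centralspindlin, had 10.3, 11.1 and 9.44 CPM in AFMC, against 12.8, 14.9 and 12.6 CPM in Hollow. Here every AFMC library lay below every Hollow library, at a log2 fold change of -0.39 ± 0.11 (edgeR adjusted p = 0.134). Groups without overlap and lower in AFMC were found in 7 members, all mitotic, which is 17.1% of the members against 12.3% of all genes.

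The cyclins and kinases of mitosis had a median nearer to 0, at -0.11. Furthest below 0 among them were Ccna2, the A-type cyclin, at -0.34 ± 0.15, and Plk1, a kinase of mitotic entry and spindle assembly, at -0.25 ± 0.14. Aurka, the kinase of spindle poles, was the one mitotic member above 0, at 0.11 ± 0.12. The log2 fold change was -0.06 ± 0.11 for Ccnb1 and -0.02 ± 0.18 for Ccnb2, the B-type cyclins, and -0.11 ± 0.12 for Cdk1, their partner. Cdk1 had 20.2, 20.2 and 21.0 CPM in AFMC, within the Hollow range of 20.8, 26.6 and 18.8 CPM.

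Among the S-phase genes, the 7 helicase and clamp members ranged from -0.13 to 0.09. Tyms, which makes the thymidylate for DNA, stood below them at 20.2, 30.7 and 23.4 CPM in AFMC, against 34.5, 37.6 and 27.4 CPM in Hollow. AFMC replicate 2 lay inside the Hollow range, and the log2 fold change was -0.42 ± 0.16 (edgeR adjusted p = 0.201). Without AFMC replicate 2 it was -0.61, with an adjusted p of 0.0477 in edgeR. At that setting 1 of 41 members and 5.62% of all genes passed, so the call is no result about the members. The E-type cyclins, partners of Cdk2 at the start of S phase, pointed in opposite directions. Ccne1 had 6.44, 6.81 and 8.85 CPM in AFMC, against 6.36, 6.31 and 5.09 CPM in Hollow, without overlap but with a gap of under 0.1 CPM, at a log2 fold change of 0.31 ± 0.18 (edgeR adjusted p = 0.358). It was the one member higher in AFMC without overlap, against 10.2% of all genes. Ccne2 had 10.5, 10.9 and 10.04 CPM in AFMC, against 13.6, 14.5 and 10.8 CPM in Hollow, overlapping slightly, at -0.31 ± 0.14 (edgeR adjusted p = 0.260).

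Both medians depended on Hollow replicate 2. Without it they were -0.13 over mitotic and 0.09 over S-phase members, and 25 members were below 0. With each library left out in turn, the S-phase median ranged from -0.13 (without AFMC replicate 3) to that 0.09. The 11 members at an unadjusted p under 0.05 became 6 without AFMC replicate 1 or Hollow replicate 1, 5 without Hollow replicate 2 and 22 without Hollow replicate 3. The share of all genes was not counted at these settings, so the shifts are not shown to be particular to the members. The S-phase minus mitotic median, 0.23 with all libraries, ranged from 0.17 (without AFMC replicate 1) to 0.30 (without Hollow replicate 3) with 1 library left out. It was 0.22 without Hollow replicate 2, 0.19 without AFMC replicate 3 and 0.21 without both. Gene length moved with the fold change: across the 29 mitotic members, Spearman's rho between transcript length and log2 fold change was -0.63, and across the 12 S-phase members -0.74, values that come from the same libraries and are not independent. Cenpf at 10069 bases and Mki67 at 9886 bases are the longest members, and Cdk1 at 1356 bases the shortest. With an offset that removes a trend with length over all genes, the log2 fold change of Cenpf was -0.29, that of Mki67 -0.34, and the mitotic rho -0.38. The mitotic roles lay closer together with it. The middle value was -0.19 for cyclins and kinases (Cdk1), -0.22 for kinetochore genes (Bub1) and -0.26 for spindle genes (Kif2c). Cytokinesis genes ranged from -0.50 (Anln) to -0.16 (Kif20a), and Cenpa was at 0.01. The medians with the offset were -0.22 over mitotic and -0.01 over S-phase members.

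**Figure D4:**
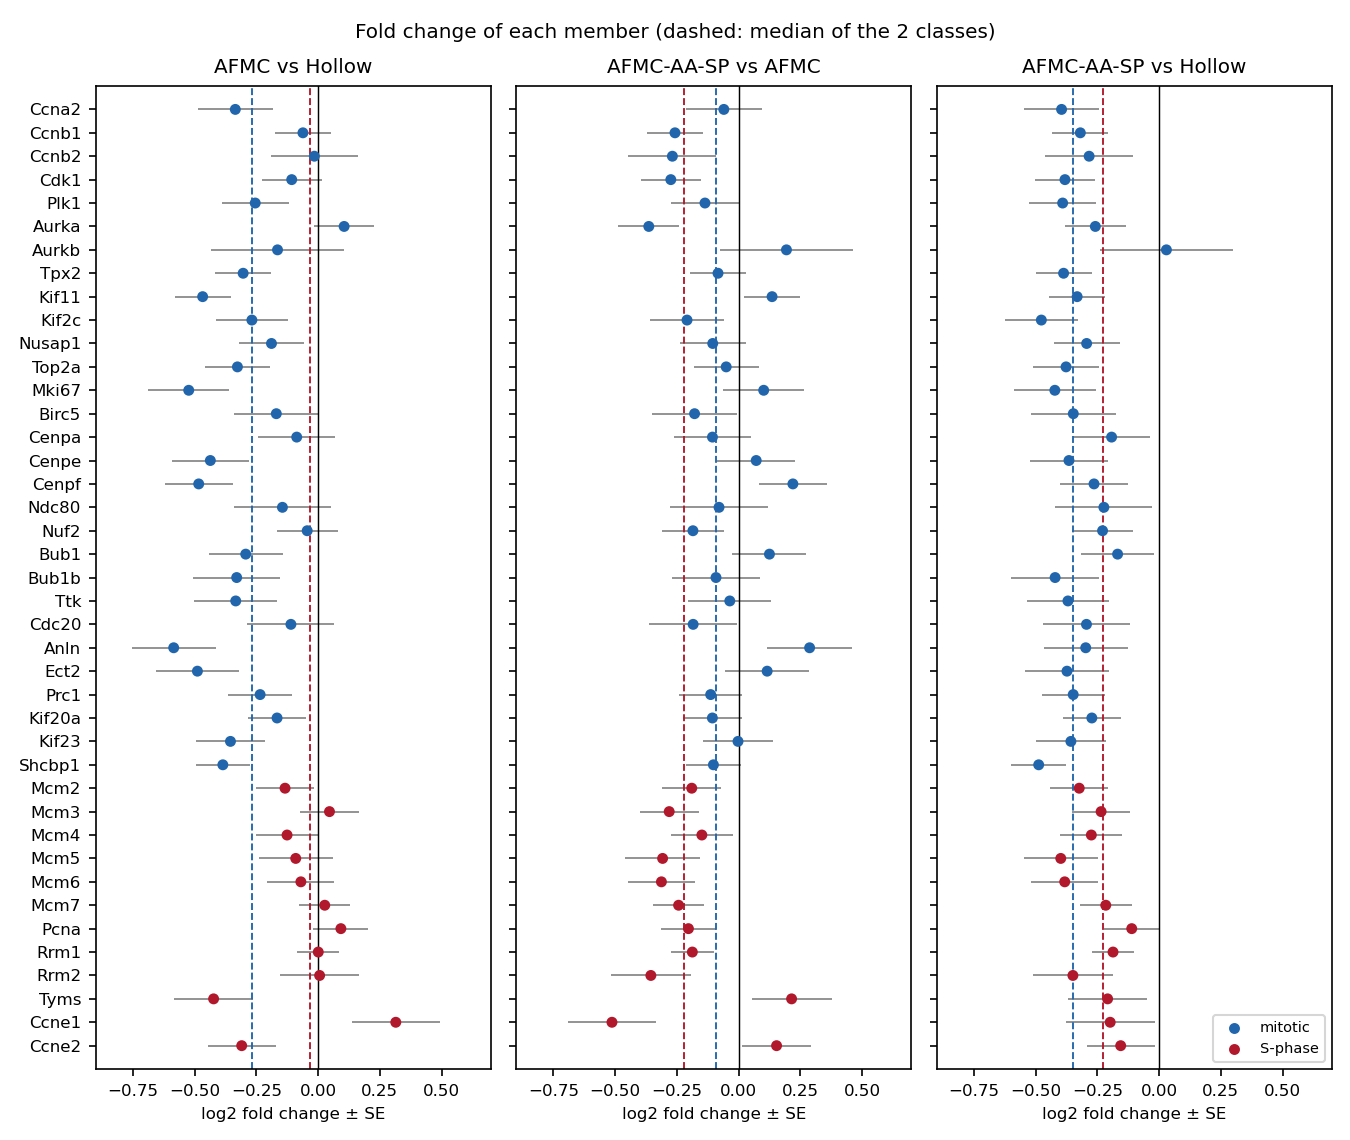
Log2 fold change ± SE (horizontal axis) of each member (rows, by role) in the 3 comparisons, with dashed lines at the medians of mitotic (blue) and S-phase (red) members. The mitotic median is the lower of the 2 in AFMC against Hollow (-0.27 and -0.03) and in AFMC-AA-SP against Hollow (-0.35 and -0.23), and the higher in AFMC-AA-SP against AFMC (-0.09 and -0.22).

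What spermidine and ascorbic acid add is addressed by setting AFMC-AA-SP against AFMC. The values furthest below 0 were those of Ccne1, Aurka, Rrm2, Mcm6 and Mcm5, and 10 of 12 S-phase and 21 of 29 mitotic members were below 0, 75.6% of the members against 52% of all genes. In edgeR's quasi-likelihood test 0 members passed an adjusted p of 0.05, as did 0% of all genes, and DESeq2 called 0 members, against 0.773% of all genes lower and 2.86% higher. At an unadjusted p under 0.05, 6 members were lower in AFMC-AA-SP (14.6%, against 7.21% of all genes) and 0 higher (against 10.1%). Groups without overlap were lower in 11 members (26.8%, against 10.3% of all genes) and higher in 2, Cenpf and Kif11 (4.88%, against 12.5%). The median was -0.09 over mitotic, -0.22 over S-phase members and -0.01 over all genes.

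All 7 helicase and clamp genes were below 0, with a median of -0.24 and a range of -0.31 to -0.15. Mcm3 had 29.2, 32.9 and 28.7 CPM in AFMC-AA-SP, against 34.5, 34.1 and 41.7 CPM in AFMC, at a log2 fold change of -0.28 ± 0.12 (edgeR adjusted p = 0.274). Mcm7 had 27.1, 29.8 and 29.4 CPM in AFMC-AA-SP, against 30.5, 33.7 and 37.8 CPM in AFMC, at -0.24 ± 0.10 (edgeR adjusted p = 0.281). For both genes each AFMC-AA-SP library lay below each AFMC library, and AFMC replicate 3 was the highest. Mcm6, at 29.5, 37.1 and 29.8 CPM in AFMC-AA-SP, against 38.7, 37.9 and 43.3 CPM in AFMC, also had no overlap, at -0.31 ± 0.14 (edgeR adjusted p = 0.286). Pcna, with 54.3, 63.9 and 65.0 CPM in AFMC-AA-SP, against 75.6, 63.3 and 71.8 CPM in AFMC, overlapped, at -0.20 ± 0.11.

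Both subunits of ribonucleotide reductase were below 0, Rrm1 at -0.19 ± 0.09 and Rrm2 at -0.36 ± 0.16, whereas Tyms was at 0.21 ± 0.16. The E-type cyclins again pointed in opposite directions. Ccne1 had 4.60, 5.99 and 4.88 CPM in AFMC-AA-SP, against 6.44, 6.81 and 8.85 CPM in AFMC, without overlap, and its log2 fold change of -0.51 ± 0.18 was the lowest of any member (edgeR adjusted p = 0.218). Ccne2 was at 0.15 ± 0.14.

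Among the cyclins and kinases of mitosis, the median was -0.26 and 6 of 7 were below 0. Aurka had 9.92, 11.8 and 9.86 CPM in AFMC-AA-SP, against 12.4, 14.3 and 13.96 CPM in AFMC. The groups did not overlap, and the log2 fold change was -0.36 ± 0.12, with the smallest adjusted p of the members in this comparison, 0.207 in edgeR. Ccnb1 had 16.2, 14.4 and 16.0 CPM in AFMC-AA-SP, against 18.3, 18.5 and 18.9 CPM in AFMC, at -0.26 ± 0.11 (edgeR adjusted p = 0.288). Cdk1 was tight in both groups, with 16.9, 16.8 and 17.0 CPM in AFMC-AA-SP, against 20.2, 20.2 and 21.0 CPM in AFMC, at -0.27 ± 0.12 (edgeR adjusted p = 0.289). Neither Ccnb1 nor Cdk1 overlapped between the groups.

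Aurkb, the kinase of the chromosomal passenger complex, had 24.8 CPM in replicate 1 of AFMC-AA-SP and 13.2 and 11.2 CPM in its replicates 2 and 3, against 15.0, 13.0 and 15.0 CPM in AFMC. Its log2 fold change of 0.19 ± 0.27 rested on AFMC-AA-SP replicate 1, without which it was -0.23. Spindle, kinetochore and cytokinesis genes lay around 0, with medians of -0.08, -0.08 and -0.05. Kif11 had 19.3, 18.7 and 20.9 CPM in AFMC-AA-SP, against 16.9, 18.4 and 18.4 CPM in AFMC, and Cenpf 32.1, 35.4 and 32.6 CPM in AFMC-AA-SP, against 27.0, 29.8 and 29.3 CPM in AFMC. Both were higher in AFMC-AA-SP without overlap, at 0.14 ± 0.11 for Kif11 and 0.22 ± 0.14 for Cenpf. With the length offset these values were 0.06 for Kif11 and 0.03 for Cenpf. Without it, Anln was at 0.29 ± 0.17, the highest of the members, with overlap. With the offset, the middle value was -0.19 for mitotic cyclins and kinases (Cdk1), -0.13 for kinetochore genes (Cdc20) and -0.09 for spindle genes (Nusap1). Cytokinesis genes then ranged from -0.12 (Prc1) to 0.21 (Anln), so the roles lay closer together than without the offset.

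These values share the AFMC libraries with the comparison above, where a low AFMC value lowers the fold change that it raises here, so the 2 sets of values are not independent. AFMC replicate 3 bore on the S-phase genes: without it the S-phase median was -0.17, Ccne1 was at -0.36, Rrm2 at -0.15, Mcm3 at -0.18, Mcm7 at -0.16 and 1 member instead of 6 had an unadjusted p under 0.05. Without AFMC-AA-SP replicate 1, or without its replicate 3, 0 members did. The share of all genes was not counted at these settings. The mitotic median was -0.06 without AFMC replicate 3 and also -0.06 without AFMC-AA-SP replicate 3. On log2(FPKM + 1) with limma-trend, the mitotic median was -0.02, the S-phase median -0.15 and 27 members were below 0. Spearman's rho between length and log2 fold change was 0.65 across mitotic members and 0.49 across S-phase members, and 0.31 and 0.24 with the length offset.

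AFMC-AA-SP against Hollow combines the fibers, the channels and both molecules. All 12 S-phase members and 28 of 29 mitotic members were below 0, 97.6% of the members against 49.8% of all genes. The exception was Aurkb at 0.03 ± 0.27, and without AFMC-AA-SP replicate 1 it was at -0.40. In edgeR's quasi-likelihood test 0 members passed an adjusted p of 0.05, as did 0% of all genes, and the smallest adjusted p of a member was 0.9999. DESeq2 called 0 members, against 0.00639% of all genes lower and 0.0447% higher. At an unadjusted p under 0.05, 18 members were lower, 15 mitotic and 3 S-phase, which is 43.9% of the members against 1.55% of all genes, and 0 were higher, against 1.69%. Groups without overlap were lower in 14 members, 9 mitotic and 5 S-phase (34.1%, against 4.96% of all genes), and higher in 0 (against 5.05%). The median was -0.35 over mitotic, -0.23 over S-phase members and 0.00 over all genes.

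The 7 roles lay closer together here, with medians from -0.38 for spindle and chromosome genes to -0.18 for the E-type cyclins. Shcbp1 had 9.78, 9.74 and 9.26 CPM in AFMC-AA-SP, against 12.8, 14.9 and 12.6 CPM in Hollow, with no overlap and a log2 fold change of -0.49 ± 0.11. Tpx2, which activates Aurka on the spindle, had 23.1, 27.4 and 25.97 CPM in AFMC-AA-SP, against 34.0, 37.0 and 29.1 CPM in Hollow, at -0.39 ± 0.11. Kif2c, a kinesin that takes microtubule ends apart, had 9.34, 8.33 and 7.62 CPM in AFMC-AA-SP, against 12.2, 13.3 and 9.75 CPM in Hollow, at -0.48 ± 0.15. In all 3 genes the highest AFMC-AA-SP library lay below the lowest Hollow library, Hollow replicate 3. Cdk1, with 16.9, 16.8 and 17.0 CPM in AFMC-AA-SP, against 20.8, 26.6 and 18.8 CPM in Hollow, did not overlap either, at -0.38 ± 0.12.

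The S-phase genes with the smallest p were subunits of the helicase. Mcm6 had 29.5, 37.1 and 29.8 CPM in AFMC-AA-SP, against 38.5, 50.1 and 37.2 CPM in Hollow, at a log2 fold change of -0.38 ± 0.14 and with AFMC-AA-SP replicate 2 just under Hollow replicate 3. Mcm5 had 23.7, 25.7 and 19.7 CPM in AFMC-AA-SP, against 26.4, 37.3 and 27.5 CPM in Hollow, without overlap, at -0.40 ± 0.15. Mcm2, at 31.9, 36.9 and 33.6 CPM in AFMC-AA-SP, against 41.8, 49.9 and 36.5 CPM in Hollow, overlapped by a little, at -0.32 ± 0.12. Pcna was the S-phase member nearest to 0, at -0.11 ± 0.11.

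The sizes, but not the directions, turned on Hollow replicate 2. Without it the median was -0.19 over mitotic and -0.14 over S-phase members, 40 members stayed below 0, and 4 members had an unadjusted p under 0.05; without Hollow replicate 3, 28 did. Without AFMC-AA-SP replicate 1 or 3 that count was 9 or 8. How many of all genes passed with a library left out was not counted, so these shifts may not be particular to the members. The S-phase minus mitotic median of 0.12 was 0.044 without Hollow replicate 2, 0.06 without AFMC-AA-SP replicate 2 and 0.08 without Hollow replicate 1. Spearman's rho between length and log2 fold change was -0.03 across mitotic and -0.31 across S-phase members. The summed Schwann cell markers were 694 to 802 CPM in AFMC-AA-SP, against 730.1 to 749.8 CPM in Hollow, and the summed macrophage markers 2152 to 2397 CPM in AFMC-AA-SP, against 1971 to 2340 CPM in Hollow. In AFMC the Schwann sum was 412 to 568 CPM and the macrophage sum 2194 to 2631 CPM. Neutrophil sums did not overlap, at 75.0 to 114 CPM in AFMC-AA-SP and 71.3 to 581 CPM in AFMC, against 33.3 to 55.5 CPM in Hollow. The sums of 6 T and NK cell markers were 54.5 to 57.1 CPM in AFMC-AA-SP and 59.5 to 142 CPM in AFMC, against 30.1 to 54.3 CPM in Hollow, also without overlap but with a gap of under 1 CPM between AFMC-AA-SP and Hollow. Fibroblast sums overlapped, at 33134 to 37905 CPM in AFMC-AA-SP, 34025 to 50182 CPM in AFMC and 33692 to 40056 CPM in Hollow. Endothelial sums did too, at 844 to 901 CPM in AFMC-AA-SP, 830 to 1007 CPM in AFMC and 719 to 970 CPM in Hollow. Skeletal muscle sums varied widely within groups, at 647 to 2031 CPM in AFMC-AA-SP, 223 to 1992 CPM in AFMC and 119 to 1901 CPM in Hollow. The part of these cell types in the members' values was not tested.

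**Figure D5:**
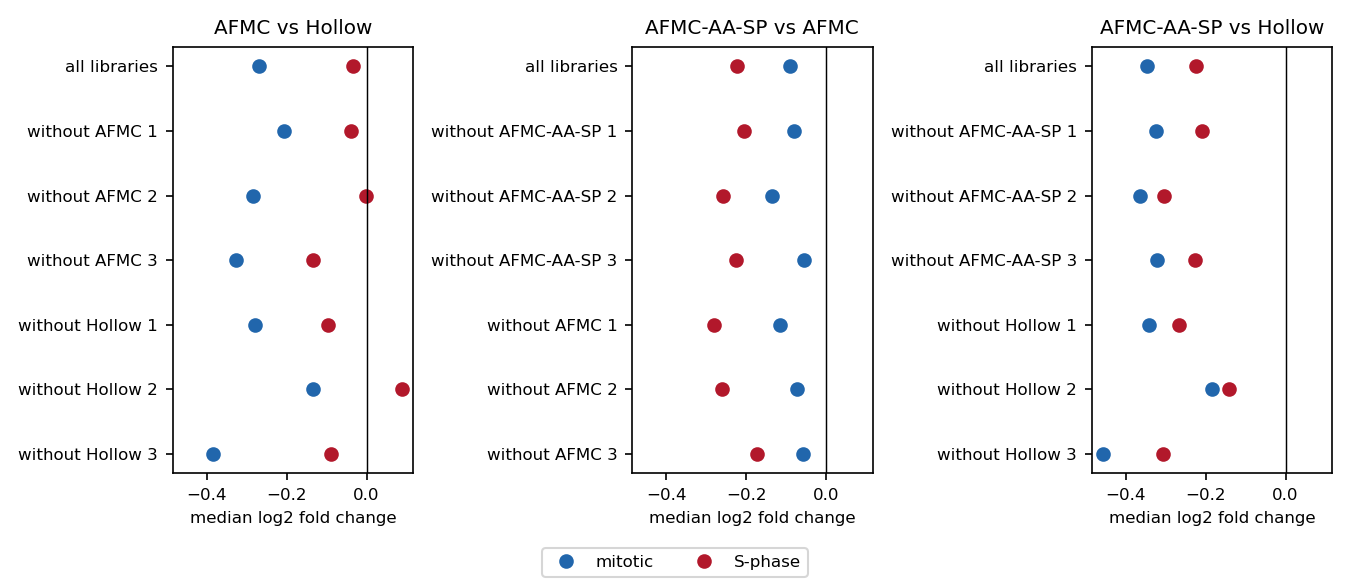
Median log2 fold change (horizontal axis) of mitotic (blue) and S-phase (red) members with all libraries and with each library left out in turn, for the 3 comparisons. Leaving out Hollow replicate 2 brings the medians against Hollow nearest to or past 0 (mitotic -0.13 and S-phase 0.09 for AFMC, -0.19 and -0.14 for AFMC-AA-SP), and the S-phase median stays below the mitotic one in AFMC-AA-SP against AFMC throughout.

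Other genes of the cell cycle, in 6 lists of 175 genes of which 168 were tested, gave the surroundings of the members. In edgeR's quasi-likelihood test 0 of them passed an adjusted p of 0.05 in any comparison. For the counts below 0 in these lists, the share of all genes was 47.9% in AFMC against Hollow. It was 52% in AFMC-AA-SP against AFMC and 49.8% in AFMC-AA-SP against Hollow. Of 63 other mitotic genes tested, 53 were below 0 in AFMC against Hollow, with a median of -0.22. At an unadjusted p under 0.05, 16 were lower, against 11.1% of all genes, and DESeq2 called 7 lower, against 3.86% of all genes. Ncapg, a condensin subunit, had 8.35 ± 1.26 CPM in AFMC, against 14.4 ± 1.47 CPM in Hollow (SD, n = 3 each), at a log2 fold change of -0.79 ± 0.14. Knl1, the kinetochore scaffold, had 14.04 ± 2.14 CPM in AFMC, against 23.2 ± 3.60 CPM in Hollow, at -0.73 ± 0.15. For neither gene did the groups overlap. In AFMC-AA-SP against AFMC, 45 of 63 were below 0, with a median of -0.10, while these genes were above 0, Ncapg at 0.49 ± 0.14 and Knl1 at 0.53 ± 0.15. Both were picked by p, and the same low AFMC values enter both comparisons. Their values here are therefore not independent of those against Hollow. In AFMC-AA-SP against Hollow, 62 of 63 were below 0, with a median of -0.31, and Ckap2, a spindle protein, had the smallest p at -0.45 ± 0.11.

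Of 37 genes of origin licensing and DNA elongation, 20 were below 0 in AFMC against Hollow (median -0.06), 32 in AFMC-AA-SP against AFMC (median -0.18) and 33 in AFMC-AA-SP against Hollow (median -0.19). In AFMC against Hollow, 2 of the 37 were lower at an unadjusted p under 0.05 in edgeR, against 11.1% of all genes. That count was 2 in AFMC-AA-SP against AFMC (7.21% of all genes) and 8 in AFMC-AA-SP against Hollow (1.55%). DESeq2 called 1 of the 37 lower in AFMC against Hollow, against 3.86% of all genes. Pola1, the catalytic subunit of the primase-polymerase, had 13.9 ± 0.77 CPM in AFMC, against 20.6 ± 3.16 CPM in Hollow, at -0.56 ± 0.12. Pold1, the catalytic subunit of polymerase delta, had 12.4 ± 0.25 CPM in AFMC-AA-SP, against 16.2 ± 1.69 CPM in AFMC, at -0.38 ± 0.11. Of 13 further genes of nucleotide supply, 12 were below 0 in AFMC-AA-SP against AFMC and 13 in AFMC-AA-SP against Hollow, where thymidine kinase Tk1 was at -0.44 ± 0.13. In AFMC against Hollow 7 were, with a median of 0.00.

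The inhibitors of cyclin-dependent kinases and other genes of quiescence lay mostly on the other side in AFMC against Hollow, where 6 of 17 were below 0 and the median was 0.17. At an unadjusted p under 0.05 in edgeR, 4 were higher, against 8.4% of all genes, and 2 were lower, against 11.1%. Cdkn1c, the inhibitor p57, had 39.5 ± 8.95 CPM in AFMC, against 24.5 ± 3.18 CPM in Hollow, at 0.69 ± 0.18, and Cdkn2d was at 0.50 ± 0.14. DESeq2 called 3 of the list higher, against 2.59% of all genes, and 0 lower, against 3.86%. In AFMC-AA-SP against AFMC, Cdkn1a, the inhibitor p21, had 60.2 ± 4.29 CPM in AFMC-AA-SP, against 86.5 ± 26.02 CPM in AFMC, at -0.52 ± 0.18. In AFMC-AA-SP against Hollow, Cdkn1c was at 0.57 ± 0.18 and 7 of 17 genes were below 0.

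Of 22 regulators of the G1 phase tested, 15 were below 0 in AFMC against Hollow, 8 in AFMC-AA-SP against AFMC and 12 in AFMC-AA-SP against Hollow. At an unadjusted p under 0.05 in edgeR, 1 was higher and 2 lower in AFMC against Hollow (8.4% and 11.1% of all genes). In AFMC-AA-SP against AFMC, 4 were higher and 3 lower (10.1% and 7.21%). DESeq2 called 1 higher and 1 lower in AFMC against Hollow (2.59% and 3.86%). It called 1 higher in AFMC-AA-SP against AFMC (2.86%). Cdk6, a partner of D-type cyclins, had 5.66 ± 1.41 CPM in AFMC, against 9.17 ± 0.77 CPM in Hollow, at -0.70 ± 0.18, and 9.51 ± 0.60 CPM in AFMC-AA-SP, at 0.75 ± 0.18 against AFMC. Its relative Cdk4 had 111 ± 6.12 CPM in AFMC-AA-SP, against 127 ± 3.43 CPM in AFMC, at -0.19 ± 0.07. Of 16 genes of replication stress and repair, 12 were below 0 in AFMC against Hollow, 8 in AFMC-AA-SP against AFMC and 13 in AFMC-AA-SP against Hollow. DESeq2 called 2 of the 16 lower in AFMC against Hollow, against 3.86% of all genes. Atr, the kinase that senses stalled forks, was at -0.46 ± 0.12 in AFMC against Hollow and at 0.31 ± 0.12 in AFMC-AA-SP against AFMC. For Cdk6 and Atr too, the AFMC libraries are shared by both comparisons, so the opposite signs are not independent.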

How the data were processed

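Poly(A) RNA was made into stranded libraries, per the labels' protocols. The authors' deposited gene table holds whole-number counts and FPKM values, the counts scaled by gene length and library total. Aligner, counter, annotation and build are not stated in those sources. The counts went into edgeR 4.0.16 in R 4.3.3: filterByExpr, TMM factors and a quasi-likelihood model with 1 term per group over all 9 libraries, which tested 15659 genes and gave a common biological coefficient of variation of 0.197. Adjusted p-values are Benjamini-Hochberg over all tested genes, two-sided. CPM values use the TMM-scaled totals. DESeq2 1.42.0 and limma 3.58.1 on log2(FPKM + 1) or log2(FPKM + 0.1) were alternatives. An exact permutation test of 3 against 3 libraries cannot go below 0.1 and was not used. Members and lists were chosen with earlier results of these data known. Members named in full are the 3 of smallest p per class and comparison and the one of highest FPKM per role, plus the members called by DESeq2. Other members given per library, such as Ect2 and Aurkb, and the promoters shown were chosen after their values were seen. From each further list, genes come from the 2 of smallest p per comparison. Of the Schwann cell markers, 8 were used and others are not reported here; that list was shortened with its values known. The edgeR fit was checked on simulated counts.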

Additional observations from a re-analysis of the deposited data

How the results depend on the processing

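In edgeR's test 0 members passed an adjusted p of 0.05 in any comparison, and this held under RLE factors, no filter on low counts, a minimum of 1 CPM in 3 libraries, only the 2 groups compared, both FPKM scales, the gene length offset and the fit without both AFMC replicate 3 and Hollow replicate 2, an alternative chosen after seeing the data. The exceptions were DESeq2, with 4 members in AFMC against Hollow (Kif11, Mki67, Cenpf and Anln), and leaving out single libraries, which gave 0 to 1 there: Tyms, at -0.61, without AFMC replicate 2 (adjusted p = 0.0477), where 5.62% of all genes passed. The median of members in AFMC-AA-SP against Hollow, -0.32, ranged from -0.42 to -0.17 with 1 library left out, the last without Hollow replicate 2. The S-phase minus mitotic median of that comparison, 0.12, ranged from 0.044 (without Hollow replicate 2) to 0.15, and was 0.044 without both libraries. Members lower at an unadjusted p under 0.05 numbered 11 in AFMC against Hollow, against 7 with the length offset and 4 without both libraries; 6 in AFMC-AA-SP against AFMC, against 2 on either FPKM scale and 3 without both; and 18 in AFMC-AA-SP against Hollow, against 6 without both. The share of all genes at an unadjusted p under 0.05 was counted for the main fit only. S-phase members below 0 in AFMC against Hollow numbered 6, against 10 on either FPKM scale. The sign of a member's value changed in 40 of 697 alternative values in AFMC against Hollow (14 genes), 29 of 697 in AFMC-AA-SP against AFMC (9 genes) and 7 of 697 in AFMC-AA-SP against Hollow (Aurkb), none of them a called value.

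Replicate numbers are shared between groups, and the labels do not say whether they pair the libraries. Correlations of same-numbered libraries' deviations were weak, at -0.05 to 0.14, yet 6 of 9 libraries correlated best with their own number. These values cannot decide whether the numbers pair the libraries. With the replicate number as a block, 0 members were called, and the medians of members were -0.16 in AFMC against Hollow, -0.11 in AFMC-AA-SP against AFMC and -0.31 in AFMC-AA-SP against Hollow. The lowest count of a member was 89 (Ccne1), and 3 libraries a group limit every estimate.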
